A study of Homo sapiens with 19 samples.

Results

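The clustered protocadherins were 53 of the 33382 genes with a deposited value, taken by symbol as PCDHA and PCDHAC (15 alpha members), PCDHB (16 beta members) and PCDHGA, PCDHGB and PCDHGC (22 gamma members). All lay on the plus strand of chromosome 5 in GRCh38, within 726.8 kb. The alpha cluster spanned chr5:140786136-141012347, the beta cluster chr5:141051374-141249365 and the gamma cluster chr5:141330514-141512977. No member was listed at 0 in all 19 samples.

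RNA-seq was compared between H1 human embryonic stem cells (hESCs) and H1 lines lacking core subunits of polycomb repressive complex 2 (PRC2), the complex that methylates lysine 27 of histone H3. There were 2 samples of each of 6 lines: WT H1, the single knockouts EZH1-/-, EZH2-/-, EED-/- and SUZ12-/-, and the double knockout EZH2-/-/EZH1-/-. EZH1 and EZH2 are the alternative catalytic subunits, while EED and SUZ12 are needed by both. The knockouts were made with CRISPR/Cas9 and homologous recombination, and the sample titles name passages or clones (for EED-/- H1, one title carries DK1_DK10 and the other DK2), so the 2 samples of a line need not be the same clone. The p-values measure the spread between such samples, estimated for each gene from all 6 lines together. A gene thus has the same SE in every comparison of 2 lines, even where the spread within those lines is smaller or larger. H1-EED-/-/EED-OE cells, in which endogenous EED was knocked out and an EED transgene was switched on by doxycycline (DOX), were measured without replicates, with DOX and on days 8, 12, 16, 20, 24 and 28 of culture without it. The title of the DOX sample also carries D28_2, so it need not have been taken before the withdrawal. All values are TPM, a relative transcript abundance that sums to the same total in each sample. They are adjusted for transcript length. The paper describes targeting that removed a functional domain of each factor, and its qRT-PCR marked significant differences from WT for the targeted genes. Gene-level TPM of these genes does not check the labels, since transcripts were still counted, for a reason that was not tested. EED was 14.25 and 22.36 TPM in EED-/- H1 cells against 17.30 and 21.96 in WT, and SUZ12 was 22.94 and 20.76 in SUZ12-/- against 25.21 and 27.89. EZH1 was 12.49 and 17.07 in EZH1-/- against 13.71 and 14.29, and EZH2 was 46.94 and 22.02 in EZH2-/- against 54.55 and 58.89. In the double knockout EZH1 was 9.37 and 6.78 TPM and EZH2 31.28 and 20.03 TPM. In the time course, EED was 108.54 TPM with DOX and 12.64 to 31.56 TPM after withdrawal.

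Clustered protocadherins are cell surface adhesion proteins through which neurons tell their own branches from those of other cells. Each alpha and gamma member has its own promoter and a large first exon, which is spliced to constant exons shared by the whole cluster, and the beta members are single-exon genes. In neurons, members other than the C-type are chosen in part at random, cell by cell, through promoter choice that involves CTCF, cohesin and DNA methylation, whereas the C-type members (PCDHAC1, PCDHAC2, PCDHGC3, PCDHGC4 and PCDHGC5) are used more uniformly. Because reads from the shared exons, and from the near-identical beta genes, had to be divided among members by the quantification, the level of a single member is less certain than the sum of a cluster.

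RefSeq promoter windows (GRCh38.p14, 250 bases before to 50 after each start) were held for 47 of the 53 members, in 52 windows. The stretches below are shown because they come from members on which the results turn, and because a short box with CGCT at its core recurs just ahead of their starts in a form shared within each cluster. Capitals mark the box, except in the alpha C-type members. In these alpha members it read TGTCGCT.
PCDHA4, chr5:140806970-140807021, plus strand: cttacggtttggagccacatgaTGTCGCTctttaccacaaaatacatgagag
PCDHA10, chr5:140855832-140855883, plus strand: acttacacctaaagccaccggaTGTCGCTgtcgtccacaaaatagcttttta
PCDHA12, chr5:140875235-140875286, plus strand: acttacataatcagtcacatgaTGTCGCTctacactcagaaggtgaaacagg
In these beta members it read GGTGGCGCT.
PCDHB2, chr5:141094533-141094584, plus strand: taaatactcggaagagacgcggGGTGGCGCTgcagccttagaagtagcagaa
PCDHB10, chr5:141192288-141192339, plus strand: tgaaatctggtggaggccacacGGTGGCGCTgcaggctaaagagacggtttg
PCDHB5, chr5:141135154-141135205, plus strand: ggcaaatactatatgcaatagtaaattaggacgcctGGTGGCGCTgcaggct
In these gamma members it read GCCGCTGT.
PCDHGB4, chr5:141387609-141387660, plus strand: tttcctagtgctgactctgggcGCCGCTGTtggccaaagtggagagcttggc
PCDHGB6, chr5:141407916-141407967, plus strand: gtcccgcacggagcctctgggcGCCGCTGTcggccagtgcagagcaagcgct
PCDHGA10, chr5:141412923-141412974, plus strand: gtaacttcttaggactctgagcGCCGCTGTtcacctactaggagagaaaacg
PCDHGC3, chr5:141475872-141475923, plus strand: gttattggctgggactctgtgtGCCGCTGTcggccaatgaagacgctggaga
The alpha C-type members held none of the longer boxes ahead of the start on the plus strand. Their capitals mark the last TCGCT there, whose share of all promoters was not counted and which need not be a shared box.
PCDHAC1, chr5:140926213-140926264, plus strand: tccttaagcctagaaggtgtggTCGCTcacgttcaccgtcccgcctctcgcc
PCDHAC2, chr5:140966358-140966409, plus strand: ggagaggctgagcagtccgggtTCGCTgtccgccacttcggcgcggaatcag
These longer boxes were read from these windows after they had been seen, and both strands were searched. TGTCGCT was found in 10 of 13 alpha windows, 1 of 14 beta windows and 3 of 25 gamma windows, against 1.76% of all 35116 promoter windows. GGTGGCGCT was found in 13 of 14 beta windows and in no alpha or gamma window, against 0.501% of all. GCCGCTGT was found in 13 of 25 gamma windows and in no alpha or beta window, against 1.63% of all. A variant, GTCGCTGT, was in 6 gamma windows, in 5 alpha windows where it can overlap TGTCGCT, and in no beta window (0.652% of all). The bare CGCT, which all of these contain, was in 51 of the 52 windows and in 70.0% of all promoters. The longer AACGCT was in 3 of the 52 windows (5.26% of all), and CNAGGNGGC, part of a CTCF-like motif, was in 2 (10.6% of all). Taking 1 window per member, the median GC content was 37.3% for alpha, 40.8% for beta and 42.0% for gamma, against 58.7% for all promoters. These letters describe the windows and not binding.

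As a sum over the whole cluster, gamma TPM was higher in all 3 PRC2-null lines (EED-/-, SUZ12-/- and the double knockout). Alpha TPM was less so, and beta TPM was higher in only 2 of them. The sum does not describe the typical gamma member, since 16 of the 22 were below WT in SUZ12-/- and 13 in the double knockout. Summed gamma TPM was 41.54 and 44.93 in WT H1 cells, with 41.01 and 50.42 for EZH1-/- and 41.70 and 41.62 for EZH2-/-. It was 235.35 and 125.71 in EED-/- H1 cells, 113.84 and 116.98 in SUZ12-/- H1 cells, and 126.13 and 92.93 in the double knockout. The 6 PRC2-null samples all lay above the 6 others. Summed beta TPM was 45.43 and 39.41 in WT H1 cells, 155.91 and 94.43 in EED-/- H1 cells, 88.99 and 79.57 in EZH2-/-/EZH1-/- H1 cells, but 34.65 and 34.38 in SUZ12-/- H1 cells, which lay below both WT samples. Summed alpha TPM was 34.48 and 35.53 in WT H1 cells and 112.18 and 69.44 in EED-/- H1 cells. SUZ12-/- H1 cells had 49.56 and 49.86 alpha TPM, while the 2 samples of EZH2-/-/EZH1-/- H1 cells, at 69.26 and 32.23, fell on either side of WT. Averaged over the PRC2-null lines, the log2 ratio to WT of the cluster sum was 1.58 for gamma, 0.76 for alpha and 0.74 for beta, where the SD between the samples of a line, pooled over the 6 lines, was 0.30, 0.39 and 0.24. These ratios were not tested, because a score over the members carries no p here.

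**Figure D1:**
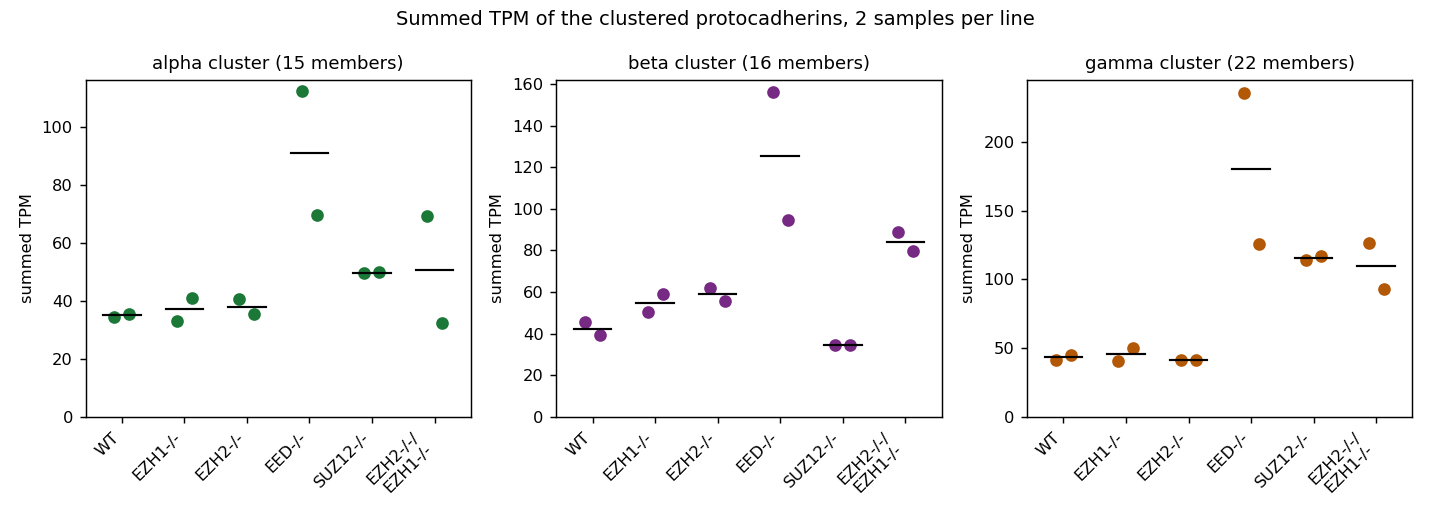
Summed TPM of the alpha, beta and gamma members (vertical axes, each from 0) in the 6 lines. Points are the 2 samples of a line and the bar is their mean. All 6 PRC2-null samples lie above the other lines in the gamma panel, and SUZ12-/- lies lowest in the beta panel.

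Pluripotency, endoderm, mesenchyme and trophoblast markers separated the PRC2-null samples from the others, which the alpha and beta sums did not. The 6 pluripotency markers summed to 130.4 to 415.0 TPM in PRC2-null cells, where the 6 other samples had 4136.5 to 5222.4. The 6 endoderm markers summed to 905.7 to 17088.2 TPM against 5 to 15, and the 5 mesenchyme markers to 3445.5 to 14105.4 against 48.6 to 81.6. The 4 trophoblast markers summed to 103.5 to 426.6 against 11.9 to 14.8, and the 4 endothelium markers to 45.5 to 451.4 against 44.7 to 142.4. The 10 neural markers overlapped between the groups, at 216.5 to 1078.3 against 156.4 to 360.6 TPM, with 2 of 7 tested called higher and 0 lower in the PRC2-null average. These were STMN2, a neuronal tubulin-binding protein, at 4.13 and 5.39 TPM in WT H1 and 151.80 to 634.54 TPM in PRC2-null cells (5.47, adjusted p = 1.25e-05), and PAX6, a neural and eye transcription factor, at 0.41 and 0.70 against 5.66 to 128.76 TPM (3.999, adjusted p = 2.51e-06). SOX1, a neural progenitor gene, was at no more than 0.23 TPM in any PRC2-null sample. TUBB3, the most abundant of the 10 in WT H1 at 269.16 and 340.26 TPM, was 49.43 and 43.05 TPM in SUZ12-/- H1. It was 325.30 and 351.58 TPM in EED-/- H1 and 182.59 and 380.31 in the double knockout. In SUZ12-/- H1 cells alone, 3 neural markers were called higher than WT and 1 lower (14.5% and 5.21% of all genes). The part of these cell types in the protocadherin levels was not tested. In bulk RNA, fewer cells of a type and less RNA per cell cannot be told apart.

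Few single members passed the thresholds. The limma fit covered the 19100 genes with at least 1 TPM in at least 2 of the 12 samples, which kept 38 members (13 alpha, 13 beta and 12 gamma), and a gene was called when its adjusted p was 1% or less and the estimated change 3-fold or more. Fold changes are on the log2(TPM + 1) scale, which understates the change of low genes. PCDHA5, PCDHB8, PCDHB11, PCDHGC4 and PCDHGC5 were under 1 TPM in WT and both single EZH knockouts. They were tested only because of PRC2-null samples, which can raise the counts and medians of members. PCDHA8 reached 1 TPM outside the PRC2-null lines only in the second EZH1-/- sample (1.74 TPM), and so also needed PRC2-null samples to be tested. In EED-/- H1 cells 7 of the 38 were higher than in WT, against 16.2% of all genes tested, and 0 were lower (6.09% of all; 0 also at an unadjusted p under 0.05). In SUZ12-/- H1 cells 3 were higher (14.5% of all) and 1 was lower (5.21%). In EZH2-/-/EZH1-/- H1 cells 3 were higher (11.6%) and 0 lower (5.66%; 1 at an unadjusted p under 0.05). In the average of the 3 PRC2-null lines 1 was higher (13.6%) and 0 lower (5.36%; 0 at an unadjusted p under 0.05). The share of members called was thus close to or under that of all genes. The median member was 0.77 higher than WT on the log2 scale in EED-/- H1 cells (0.36 over all genes tested), -0.0021 in SUZ12-/- H1 cells (0.22) and 0.32 in the double knockout (0.19). Scaling the samples by median ratios shifted the median of all genes by -0.29, -0.14 and -0.12 in these 3 comparisons.

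In EZH1-/- H1 and EZH2-/- H1 cells limma called 0 members against WT. In EZH1-/- H1 cells the background was 0.0576% higher and 0.0419% lower, and 4 members were higher and 0 lower at an unadjusted p under 0.05. In EZH2-/- H1 cells the background was 0% in both directions, and 2 members were higher and 0 lower at that p. The beta member PCDHB5 had 15.30 and 21.56 TPM in EZH1-/- H1 and 19.27 and 19.08 TPM in EZH2-/- H1 cells, against 7.08 and 2.75 in WT H1 cells. Neither difference passed, with adjusted p = 0.101 (1.80 ± 0.47, log2 fold change ± SE) and adjusted p = 0.377 (1.87 ± 0.47). The 2 WT samples themselves differed by 1.11 on the log2 scale for PCDHB5.

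Among the gamma members, PCDHGB6, the 15th of the 22 in order, was the member called in the PRC2-null average. It was 2.70 and 3.21 TPM in WT H1 cells, 2.65 and 3.26 in EZH1-/- H1, and 2.35 and 1.90 in EZH2-/- H1. It was 40.39 and 38.39 TPM in EED-/- H1 cells, 23.55 and 24.11 in SUZ12-/- H1, and 18.92 and 4.61 in the double knockout. No PRC2-null sample overlapped the others, although the second EZH2-/-/EZH1-/- sample was nearest to them. The log2 fold change over WT was 3.36 ± 0.46 in EED-/- H1 (adjusted p = 0.000148), 2.65 ± 0.46 in SUZ12-/- H1 (adjusted p = 0.000769) and 2.48 ± 0.37 in the average (adjusted p = 0.000242). In EZH2-/-/EZH1-/- H1 cells it was 1.42 ± 0.46 and was not called (adjusted p = 0.0275).

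PCDHGC3, a C-type member and the most abundant gamma gene over the 12 samples, was 10.75 to 18.07 TPM in the 6 samples with PRC2 or 1 catalytic subunit. It was 79.66 and 30.67 TPM in EED-/- H1 cells, 43.28 and 47.78 in SUZ12-/- H1, and 39.85 and 76.40 in the double knockout, again without overlap. Only the last line passed both thresholds, at 1.66 ± 0.40 (adjusted p = 0.0066), while EED-/- H1 at 1.51 ± 0.40 missed the fold change (adjusted p = 0.00921) and SUZ12-/- H1 at 1.39 ± 0.40 missed both (adjusted p = 0.0153). The SE of 0.40 is shared by all lines, although the 2 SUZ12-/- samples lay closer together than those of EED-/- or the double knockout. PCDHGC4 was 0.69 to 0.98 TPM in the 6 samples other than PRC2-null, 4.88 and 5.46 in SUZ12-/- H1, 2.08 and 1.82 in EED-/- H1, and 4.77 and 0.52 in the double knockout. PCDHGC5 was at most 0.20 TPM outside the PRC2-null samples and 0.17 to 2.10 TPM within them. Neither was called in any line. PCDHGB7, which lies just 3′ of PCDHGA10, was 4.70 and 4.14 TPM in WT H1 and 44.15 and 21.41 in EED-/- H1 cells, where it was called (2.56 ± 0.65, adjusted p = 0.00703). It was 18.86 and 17.07 TPM in SUZ12-/- H1 (adjusted p = 0.0397) and 20.03 and 2.68 in the double knockout (adjusted p = 0.404).

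The 5′ gamma members were low, and their sum was below that of WT in SUZ12-/- and EZH2-/-/EZH1-/- H1 cells. A split into the first 10 and the last 12 gamma genes, chosen after the values had been seen, is given as a description. The first 10 together held 4.89 to 8.81 TPM in the 6 samples of WT and the single EZH knockouts, 0.99 and 0.43 in SUZ12-/- H1, 2.70 and 1.18 in the double knockout, and 12.41 and 2.88 in EED-/- H1 cells. All 10 were lower than WT in the SUZ12-/- means (-1.09 to -0.09 on the log2(TPM + 1) scale) and in the EZH2-/-/EZH1-/- means (-0.98 to -0.09), whereas in EED-/- H1 cells 7 were higher and 3 lower (-0.22 to 0.39). The last 12 together held 35.45 to 41.61 TPM in the 6 samples and 91.75 to 222.94 TPM in the PRC2-null samples. Across the 22 gamma genes, Spearman's rho between order in the cluster and the difference from WT was 0.388 for EED-/-, 0.552 for SUZ12-/- and 0.634 for the double knockout. It was -0.020 for EZH1-/- and -0.108 for EZH2-/-. All of these share the WT samples and the points share their libraries, so no p is given. For the alpha genes rho was -0.064, 0.525 and 0.107 in the 3 PRC2-null lines and for the beta genes 0.121, 0.097 and -0.035. By line, 17 of the 22 gamma members were above WT and 5 below in EED-/-, 6 and 16 in SUZ12-/-, and 9 and 13 in the double knockout. In the PRC2-null average, where the log2 ratio of the gamma sum was 1.58, 12 of the 22 gamma members were above WT and 10 below. The median of their differences was 0.046 on the log2(TPM + 1) scale, and 0.62 over the 12 that were tested, while the median level over the 22 members differed by -0.28 from that of WT, so the sign for a typical member depended on the summary. The 0.62 also depends on the filter, since PCDHGC4 and PCDHGC5 were among the 12 only through PRC2-null samples.

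**Figure D2:**
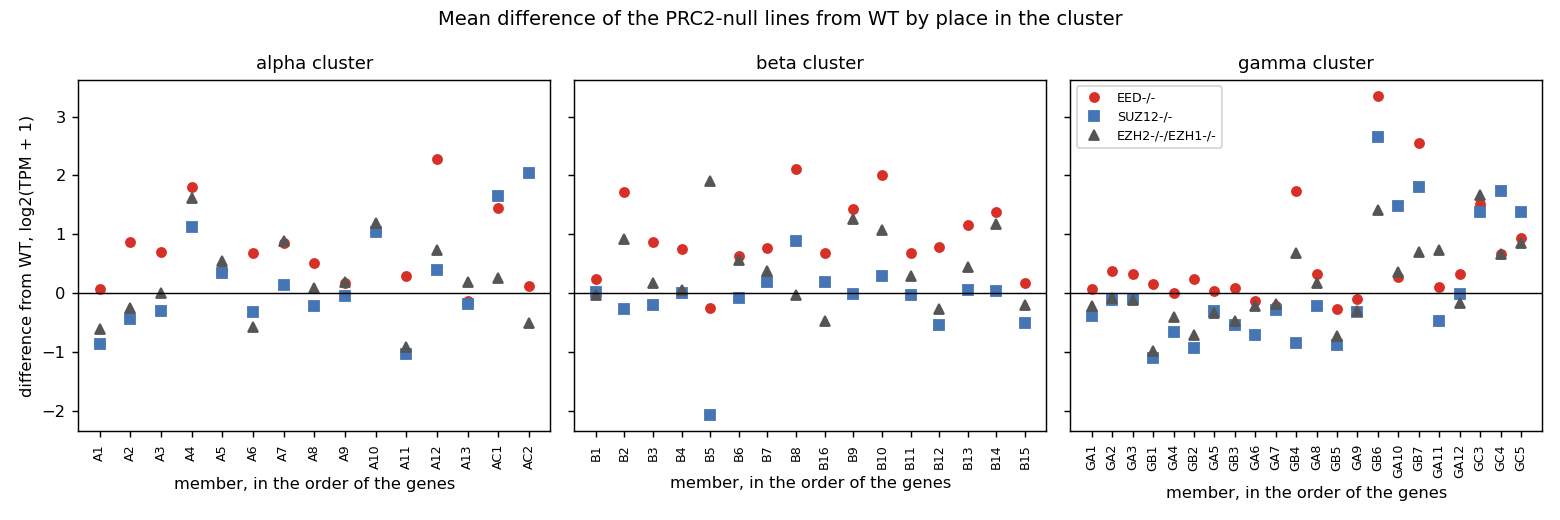
Mean difference from WT on the log2(TPM + 1) scale (vertical axis) of each member, in the order of the genes from 5′ to 3′, for EED-/-, SUZ12-/- and the double knockout (2 samples each). In the gamma panel the first 10 members lie below 0 in SUZ12-/- and EZH2-/-/EZH1-/-, and the highest points are PCDHGB6 in EED-/- (3.36) and in SUZ12-/- (2.65).

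Groups that did not overlap were counted over all 27963 genes above 0 in at least 1 of the 12 samples. Of the 53 members, 4 were higher in every PRC2-null sample than in each of the 6 others (17.4% of all genes) and 2 were lower in every one (9.34%). Beside PCDHGB6 and PCDHGC3 the higher ones were PCDHA4 and PCDHB7, and the lower ones PCDHGA7 and PCDHGB5, named after their values had been seen. PCDHA4 was 2.14 to 3.09 TPM in the 6 samples and 15.60 and 10.55 in EED-/- H1, 8.23 and 6.98 in SUZ12-/- H1 and 9.45 and 12.91 in the double knockout. It was called in EED-/- H1 (1.81 ± 0.28, adjusted p = 0.000328) and in EZH2-/-/EZH1-/- H1 (1.61 ± 0.28, adjusted p = 0.000923), and reached 1.12 ± 0.28 in SUZ12-/- H1 (adjusted p = 0.00702). PCDHB7 was low throughout, at 0.32 to 1.08 against 0.12 to 0.28 TPM. PCDHGB5 ran the other way, at 0.06 to 0.64 against 0.80 to 4.06 TPM, and PCDHGA7 was at 0 to 0.09 against 0.15 to 0.45 TPM.

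The other alpha members varied between lines and between samples of a line. PCDHA12 was 2.65 and 4.18 TPM in WT H1 cells and 20.44 and 19.57 in EED-/- H1, where it was called (2.27 ± 0.55, adjusted p = 0.00549). It was 4.78 and 4.66 TPM in SUZ12-/- H1 and 14.69 and 2.34 in the double knockout. PCDHA6, the most abundant alpha member, was 7.03 and 9.14 TPM in WT, 12.64 and 14.31 in EED-/-, 5.55 and 7.01 in SUZ12-/-, and 9.75 and 2.46 in the double knockout. PCDHA11, which led the cluster in 5 of the 6 samples other than PRC2-null, was 2.75 and 3.30 TPM in SUZ12-/- H1 against 7.41 and 7.09 in WT.

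In SUZ12-/- H1 cells both C-type alpha genes were called higher than WT and PCDHB5 lower. PCDHAC2 was 11.21 and 11.72 TPM in SUZ12-/- H1 cells and 0.23 to 3.11 TPM in the 10 other samples of the 6 lines. It was called against WT (2.04 ± 0.47, adjusted p = 0.00445) and against EZH2-/-/EZH1-/- H1 (2.54 ± 0.47, adjusted p = 0.00468), and not against EED-/- H1 (1.92 ± 0.47, adjusted p = 0.0159). PCDHAC1 was 4.37 and 4.28 TPM in SUZ12-/- H1 against 0.64 and 0.76 in WT (1.65 ± 0.40, adjusted p = 0.00624). It was 3.38 and 3.88 TPM in EED-/- H1 (adjusted p = 0.0115 against WT), from which SUZ12-/- H1 differed by 0.20 ± 0.40 (adjusted p = 0.774), and 2.19 and 0.30 in the double knockout. PCDHB5 was 0.64 and 0.04 TPM in SUZ12-/- H1, 2.00 and 6.20 in EED-/- H1, and 22.12 and 17.62 in the double knockout. It was called lower than WT in the first (-2.08 ± 0.47, adjusted p = 0.00387) and higher than WT in the last (1.91 ± 0.47, adjusted p = 0.00686), a difference between these lines of -3.99 ± 0.47 (adjusted p = 0.000282). SUZ12-/- against EED-/- H1 was not called for PCDHB5 (-1.83 ± 0.47, adjusted p = 0.0192).

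In the beta cluster PCDHB2 was the most abundant member, with 16.66 and 18.84 TPM in WT H1, 73.31 and 50.51 in EED-/- H1, 14.32 and 14.73 in SUZ12-/- H1, and 33.63 and 35.30 in the double knockout. EED-/- H1 was 1.73 ± 0.23 above WT (adjusted p = 0.000112) and SUZ12-/- H1 differed from EED-/- H1 by -1.995 ± 0.23 (adjusted p = 0.000191). PCDHB10 was 1.51 and 1.01 TPM in WT, 9.98 and 6.52 in EED-/- H1 and 1.78 and 1.72 in SUZ12-/- H1, with 2.02 ± 0.30 for EED-/- against WT (adjusted p = 0.00027) and -1.72 ± 0.30 for SUZ12-/- against EED-/- (adjusted p = 0.00265). PCDHB8 was called in EED-/- H1 (2.10 ± 0.50, adjusted p = 0.00504) from 10.47 and 2.65 TPM against 0.52 and 0.49 in WT. Between SUZ12-/- and EED-/- H1 cells, 0 members were called higher (3.54% of all genes; 2 at an unadjusted p under 0.05) and 2 lower (2.58%; 22 at that p), and the median member differed by -0.75, where that of all genes was -0.14. Between SUZ12-/- and EZH2-/-/EZH1-/- H1 cells 1 was higher (3.32%) and 1 lower (1.14%), and between EZH2-/-/EZH1-/- and EED-/- H1 cells limma called 0 in either direction (0.0314% and 0.0576% of all), with 1 higher and 16 lower at an unadjusted p under 0.05.

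**Figure D3:**
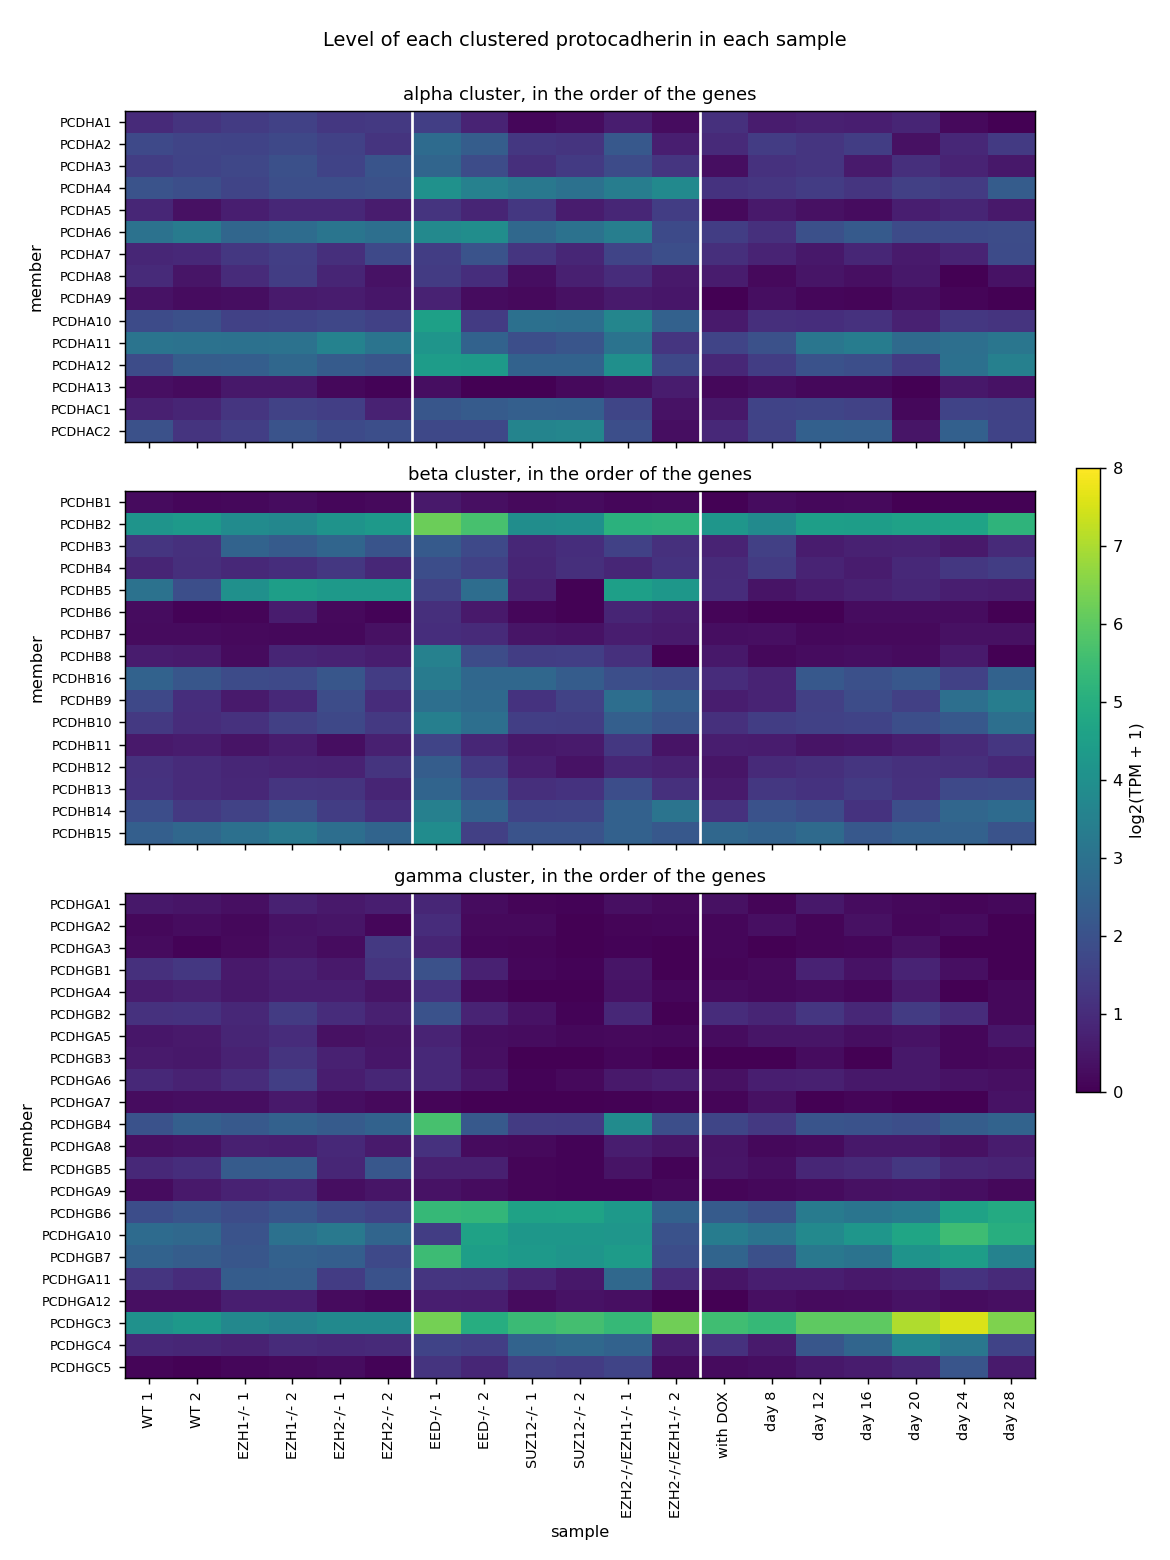
Level of each of the 53 members (rows, in genomic order) in each of the 19 samples (columns) as log2(TPM + 1), shown by colour from 0 to 8. White lines part the 6 samples of WT and single EZH knockouts, the 6 PRC2-null samples and the time course. PCDHB2 and PCDHGC3 are bright in most samples, PCDHAC2 stands out in SUZ12-/-, and PCDHB5 is bright in the single EZH knockouts and in EZH2-/-/EZH1-/-.

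The 2 samples of a line did not always express the same members. Of the 38 members tested, 12 differed by more than 1 on the log2(TPM + 1) scale between the 2 EED-/- samples (31.6%, against 8.48% of all genes tested), and 15 between the 2 EZH2-/-/EZH1-/- samples (39.5% against 20.7%). In SUZ12-/- H1 cells the count was 0 (1.74% of all genes), in WT H1 cells 1 (1.41%), in EZH1-/- H1 cells 0 (1.43%) and in EZH2-/- H1 cells 1 (9.29%). The median absolute difference of all genes tested was also smallest in SUZ12-/- H1, at 0.128. In EED-/- H1 cells most members that differed by more than 1 were lower in the second sample, while PCDHB5 and PCDHGA10 were higher. All 53 members together summed to 503.44 TPM in the first sample and 289.58 in the second. PCDHGB4 was 49.51 TPM in the first sample and 3.71 in the second, PCDHA10 was 22.28 and 1.60, and PCDHB15 was 13.90 and 1.87, whereas PCDHGA10 was 1.76 and 23.15. PCDHGB4, PCDHA10 and PCDHGA10 were picked after their values had been seen. In EZH2-/-/EZH1-/- H1 cells the second sample was low in most alpha and gamma genes, and PCDHGC3 alone made up 82.2% of its gamma TPM against 31.6% in the first. PCDHA4 held 40.1% of its alpha TPM. The beta genes agreed better, with 1 of 13 differing by more than 1 against 7 of 13 alpha and 7 of 12 gamma genes. Genes outside the clusters, picked after their values had been seen, also differed between these 2 samples. SMC1A was 30.21 and 6.57 TPM and ADAM10 156.81 and 26.54, while NDUFA2 was 81.72 and 167.23 and SRA1 75.85 and 152.0. The part of a difference between the libraries in the protocadherin levels was not tested. Without the first EED-/- sample, 2 members were called higher than WT in that line, and without the second EZH2-/-/EZH1-/- sample 2 were called in the PRC2-null average.

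**Figure D4:**
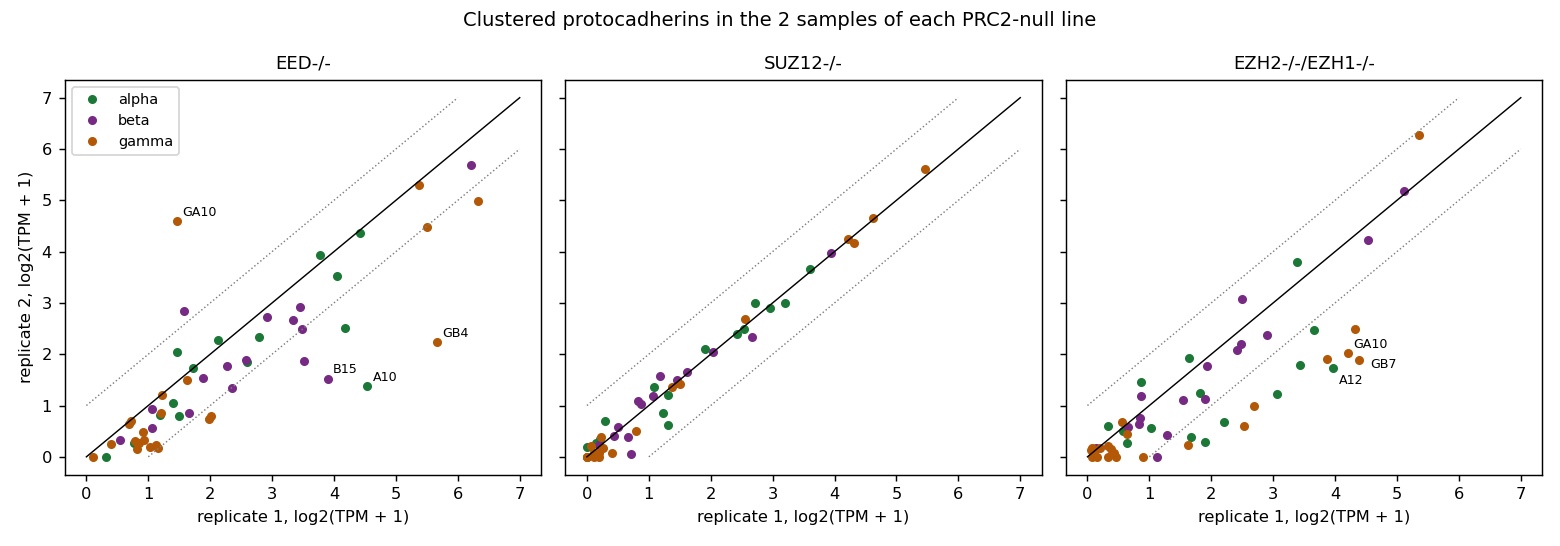
Each member's log2(TPM + 1) in the first (horizontal) and second (vertical) sample of each PRC2-null line. The solid line marks equal levels and the dotted lines a difference of 1, and members more than 2 apart are named. Points hug the line in SUZ12-/- and scatter in EED-/- and in EZH2-/-/EZH1-/-.

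After DOX withdrawal all 3 cluster sums were higher at day 28 than with DOX, and the gamma sum spanned the widest range of TPM. Summed gamma TPM was 71.29 with DOX, 58.97 at day 8, 106.93 at day 12, 110.34 at day 16, 203.78 at day 20, 297.50 at day 24 and 168.29 at day 28. Summed beta TPM was 31.56 with DOX, 31.50 at day 8, 42.31 at day 12, 39.09 at day 16, 44.34 at day 20, 53.85 at day 24 and 73.89 at day 28. Summed alpha TPM was 12.09 with DOX and then 17.59, 27.81, 29.04, 16.89, 29.26 and 35.52 at the same days. With 1 sample per day there is no replicate check and no test, and every day is set against the same DOX sample. With DOX present these cells were not equal to WT H1 cells, since their gamma sum was above and their alpha sum below both WT samples. The higher alpha sum at day 28 holds against the DOX sample, while against the WT mean the log2 ratio was 0.021. Over the same 7 samples the pluripotency markers ranged from 376.6 to 5185.7 TPM, mesenchyme from 61.9 to 5616.6, endoderm from 5.0 to 993.4, trophoblast from 13.2 to 125.1, endothelium from 42.0 to 527.9 and neural from 140.5 to 537.1, and their part was not tested.

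**Figure D5:**
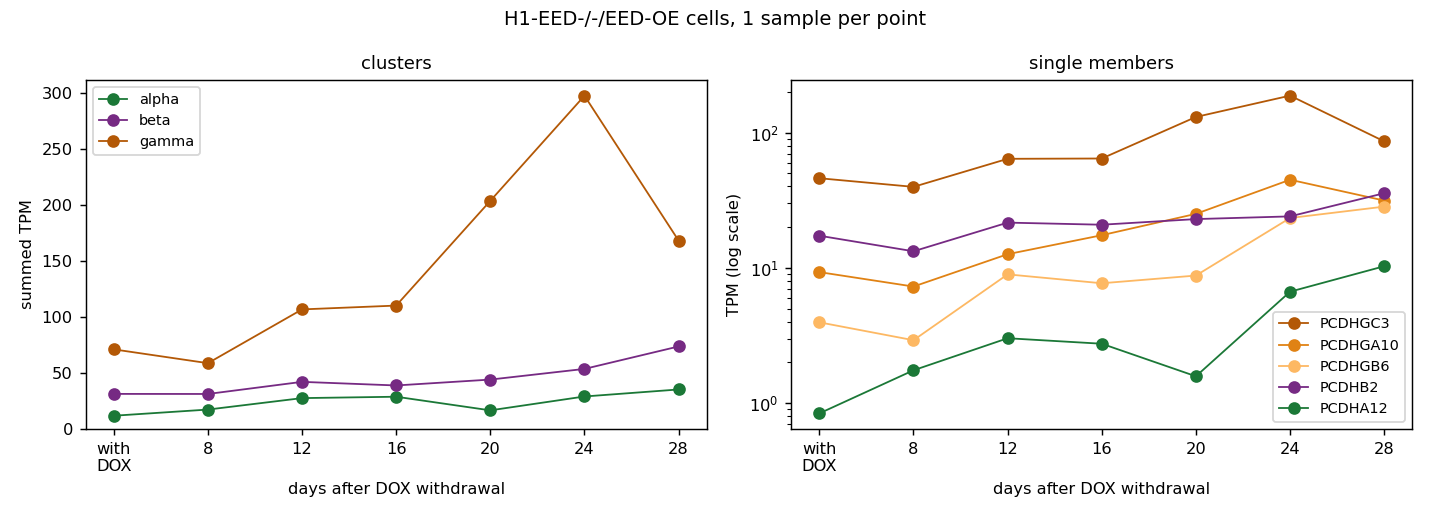
Summed TPM of the 3 clusters (left) and TPM of 5 members on a log axis (right) with DOX and at days 8 to 28 after withdrawal, 1 sample per point. The days are evenly spaced and the DOX sample is placed first. The gamma sum peaks at day 24 with 297.50 TPM, and PCDHGC3 is the highest member on every day.

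PCDHGC3 held most of the gamma TPM in these cells, at 46.03 TPM with DOX, 39.74 at day 8, 64.07 at day 12, 64.40 at day 16, 130.63 at day 20, 187.86 at day 24 and 86.21 at day 28. Its share of gamma TPM was 51.2% to 67.4% in these 7 samples, against 21.3% to 40.2% in the samples of WT and the single EZH knockouts. PCDHGA10 was 9.31 TPM with DOX and 7.28, 12.63, 17.45, 25.10, 44.87 and 31.47 at the successive days. PCDHGB6 was 3.96 TPM with DOX and 2.92, 8.96, 7.70, 8.78, 23.39 and 28.39. The first 10 gamma genes stayed between 1.48 and 4.54 TPM in sum, the last 12 went from 68.97 to 166.81 TPM between DOX and day 28, and rho with order in the cluster was 0.81 at day 28 and -0.187 at day 8.

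Of the 33 members with at least 1 TPM in any of the 7 samples, 6 were at least 3-fold higher at day 28 than with DOX on the log2(TPM + 1) scale (17.9% of 19011 genes) and 0 were at least 3-fold lower (5.61%). At day 24 these were 8 (12.9%) and 0 (4.67%). At day 20 the higher count was 1 (9.07%), PCDHGC4, from 1.19 to 11.87 TPM, and at day 16 it was 1 (3.81%), PCDHA11, from 2.14 to 9.23 TPM. No member was at least 3-fold lower on either day (2.69% and 0.894% of all genes). At days 24 and 28 PCDHA12, PCDHB9, PCDHGB6 and PCDHGA10 were among the higher ones. PCDHA12 was 0.84 TPM with DOX, 6.67 at day 24 and 10.29 at day 28, and PCDHB9, named after its values had been seen, was 0.56, 6.63 and 9.55. PCDHGC5 was 0.17 TPM with DOX and 3.29 at day 24, but 0.49 at day 28. PCDHB2 was 17.30 TPM with DOX and 35.67 at day 28. PCDHB5, which was high in both single EZH knockouts, was 0.33 to 1.03 TPM in all 7 samples, and PCDHA4 was 1.27 TPM with DOX, 1.61 at day 24 and 3.97 at day 28. The median member was 0.70 above DOX at day 28 (all genes, 0.40). The filter could be met through a withdrawal day alone, which can raise the counts of higher genes and these medians. With DOX, 18 of the 53 members had at least 1 TPM, and PCDHA12, PCDHB9 and PCDHGC5 had less. Over all members, with no filter, the median difference at day 28 was 0.404 for alpha, 0.448 for beta and 0.244 for gamma.

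The non-clustered protocadherins, single genes outside the arrays, were called more often in the PRC2-null lines, a difference that was not tested. Of 12, 11 were tested, and 7 were called higher and 1 lower than WT in the PRC2-null average, against 1 and 0 of the 38 clustered members, and 13.6% and 5.36% of all genes. By line the counts were 7 and 1 for EED-/- (16.2% and 6.09% of all genes), 5 and 1 for SUZ12-/- (14.5% and 5.21%), and 6 and 1 for the double knockout (11.6% and 5.66%), so the 1 lower of 11 lay near the share of all genes. The counts of higher genes depend in part on the filter. PCDH9, PCDH17 and PCDH19 were under 1 TPM in WT and both single EZH knockouts, and so were tested only because of PRC2-null samples. PCDH8, PCDH12 and PCDH20 reached 1 TPM in only 1 sample outside the PRC2-null lines. PCDH10 was 3.62 and 2.68 TPM in WT H1 and 35.17 to 140.33 TPM in the PRC2-null samples (4.01, adjusted p = 2.21e-06), PCDH7 rose by 4.19 (adjusted p = 4.24e-06) and PCDH17 by 3.39 (adjusted p = 1.35e-05). PCDH1, which lies 3′ of the gamma cluster, fell by 2.67 (adjusted p = 7e-06). In EZH2-/- H1 and EZH1-/- H1 cells 0 were called. Of the 24 genes listed around and between the clusters on 5q31, 23 were tested and 1 was higher (PCDH12) and 2 lower (TMCO6 and PCDH1) in the average, again beside 13.6% and 5.36% of all genes, which are the shares for the lists that follow too.

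Among genes known to act on the clusters, the DNA methyltransferase DNMT3B fell furthest of those called. Of 11 genes for CTCF and cohesin, 0 were higher and 1 lower in the PRC2-null average: SMC3, a cohesin subunit, by -1.73 (adjusted p = 0.000512). CTCF itself was 54.77 and 55.71 TPM in WT H1 and 29.51 to 37.59 TPM in the PRC2-null samples (-0.73, adjusted p = 0.00335), below the fold threshold. CTCF was also 30.24 and 34.35 TPM in EZH1-/- H1 and 52.94 and 37.34 in EZH2-/- H1 cells, so lower CTCF was not particular to PRC2-null cells. SMC3 was 96.45 and 115.52 TPM in WT H1 and 60.48 and 64.89 in EZH1-/- H1. Against the average of WT, EZH1-/- and EZH2-/- H1, 0 of the 11 were called lower, with 3 higher and 4 lower at an unadjusted p under 0.05. Of 11 silencing factors 2 were lower. DNMT3B, which is abundant in hESCs, was 845.71 and 840.39 TPM in WT H1 and 6.92 to 30.91 TPM in the PRC2-null samples (-5.49, adjusted p = 8.38e-07). EHMT2, a histone H3 lysine 9 methyltransferase, fell by 1.59 (adjusted p = 1.78e-05), just past the 3-fold threshold. EHMT2 was 137.92 and 132.31 TPM in WT H1, 110.29 and 107.69 in EZH1-/- H1, and 103.62 and 120.89 in EZH2-/- H1. Against the average of these 3 lines, 1 of the 11 silencing factors was called lower and 0 higher. SMCHD1, a repressor of the clusters, was 16.09 and 13.84 TPM in WT and 5.82 to 22.37 TPM in the PRC2-null samples (0.11, adjusted p = 0.825). In the time course DNMT3B was 433.69 TPM with DOX, 91.07 at day 20, 21.54 at day 24 and 32.61 at day 28. Of 20 processing and partner proteins 1 was higher, PTK2B (1.67, adjusted p = 0.00186), a kinase that binds protocadherins.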

How the data were processed

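The authors prepared TruSeq RNA libraries and deposited 1 TPM value per gene and sample, which RSEM computed from reads aligned with Bowtie to a transcript reference on GRCh38 (the labels also name hg19 without a role). The deposited TPM values sum to 999999.2 to 1000001.0 per sample, keep no read depth, and so allow no counting interval; precision rests on the replicates. The edgeR test on counts that the authors describe could not be run on TPM, and the main test was limma 3.58.1 in R 4.3.3 on log2(TPM + 1), with trend and robust options, 1 mean per line, 6 residual degrees of freedom and Benjamini-Hochberg adjustment over all genes tested. Genes under 1 TPM in all but 1 of the 12 line samples, or in all of them, were left out. The script was tested on simulated data.

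Members and lists were chosen with earlier results of these data known. Named genes were, per cluster, the 3 with the highest mean TPM, the called members, the C-type members, and the largest called changes of each list; others are named as chosen after their values were seen. Coordinates come from GENCODE on GRCh38, and a symbol with more than 1 identifier was matched by its name there. Python 3.11.15 was used. The kit and counting are not stated to use strand.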

Additional observations from a re-analysis of the deposited data

Results flagged for a closer look

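Differences between PRC2-null lines that passed the test between the lines themselves were 4 among the members. PCDHB2 was lower in SUZ12-/- H1 than in EED-/- H1 cells by -1.995 on the log2 scale, and PCDHB10 by -1.72. PCDHB5 was lower in SUZ12-/- H1 than in EZH2-/-/EZH1-/- H1 cells by -3.99, and PCDHAC2 was higher by 2.54. Each rests on 2 samples against 2.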

How the results depend on the processing

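Counts are few, so 1 member can move them by over 1.5 times; the cause of these changes was not tested beyond what each setting removes. Members called higher in EED-/- H1 cells were 7 in the report, 4 with no filter on low values, 15 at an FDR of 5% with no fold cutoff, and 2 to 9 when 1 sample was left out (4 without either WT sample, 2 without the first EED-/- sample). In SUZ12-/- H1 cells the 3 higher members became 8 at the looser threshold, 5 in a fit of only the compared lines and 1 to 2 without 1 sample (1 without the second WT or either SUZ12-/- sample). The 1 lower member became 2 with a pseudocount of 0.1, 4 at the looser threshold and 0 to 1 without 1 sample (0 without the first WT or either SUZ12-/- sample). In EZH2-/-/EZH1-/- H1 cells the 3 higher members became 1 with no filter, 1 after median-ratio scaling, 9 at the looser threshold, 0 in a fit of only the compared lines and 0 to 4 without 1 sample (0 without the second WT sample). In the PRC2-null average the 1 higher member became 3 with a pseudocount of 0.1, 11 at the looser threshold, 4 against the average of WT, EZH1-/- and EZH2-/- H1, and 1 to 4 without 1 sample (4 without the second EED-/- sample, 2 without either EZH2-/-/EZH1-/- sample).

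Between lines, SUZ12-/- against EED-/- gave 2 members in the report, 12 at the looser threshold and 1 to 6 without 1 sample (6 without the second EED-/- sample, 1 without any other of the 4). SUZ12-/- against EZH2-/-/EZH1-/- gave 2, then 1 with a pseudocount of 0.1, 5 at the looser threshold, 0 in a fit of only the compared lines and 1 to 6 without 1 sample (6 without the first EZH2-/-/EZH1-/- sample, 1 without either SUZ12-/- sample). EZH2-/-/EZH1-/- against EED-/- gave 0, and 0 to 7 without 1 sample (7 without the first EZH2-/-/EZH1-/- sample). A lone remaining sample is assumed to vary like the other lines.

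With a replicate block, the PRC2-null average had 2 higher members in place of 1, and no other count of members moved. The labels pair no samples, and correlations of same-numbered deviations ran from -0.121 to 0.218 over 15 pairs of lines.

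The log2 ratio of cluster sums over WT was 0.574 to 0.942 for alpha, 0.619 to 0.86 for beta and 1.43 to 1.73 for gamma without 1 sample. The median over members gave 0.288 for alpha, 0.433 for beta and -0.277 for gamma, which reversed the gamma direction. That value is a difference of median levels, and the median of the members' own differences was 0.046 over 22 gamma members and 0.616 over the 12 tested. PCDHGC4 and PCDHGC5 were among those 12 only through PRC2-null samples. The average of WT, EZH1-/- and EZH2-/- H1 as reference gave 0.459 for beta. For day 28 over DOX (1.56 alpha, 1.23 beta and 1.24 gamma), day 24 gave 0.771 for beta and 2.06 for gamma. WT H1 as reference gave 0.021, 0.804 and 1.96. The median over members gave 0.488, 0.647 and 0.076, and median-ratio scaling gave 1.07, 0.743 and 0.755. Without PCDHGC3, gamma gave 1.70. Members at least 3-fold higher at day 28 were 6 in the report, 10 with a pseudocount of 0.1 and 3 after scaling, and those lower were 0, then 2 with a pseudocount of 0.1 and 1 against WT H1. For PCDHB5 the average difference of -0.14 ran from -0.689 without the second WT sample to 0.419 without the first, and was 0.075 without the first EED-/- sample.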
